A study of Mus musculus with 6 samples.

Results

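Sh3bgrl3, Extl1, Alpl and Akr7a5 are 4 genes that lie near each other on mouse chromosome 4 and whose levels differed between B cells deficient in PP2Aa and wild-type (WT) B cells. They were picked by name for that difference, so the difference itself is described here and not tested. All 4 were among the 22788 genes of the expression table and among the 9425 that passed the filter on low values, a level of at least 1 FPKM (fragments assigned to a gene, scaled by its transcript length and by the size of the library) in at least 3 of the 6 libraries. Extl1 met that filter only through the WT libraries, and the other 3 genes were above it in every library.

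The PP2Aa-deficient mice carried a Cre driver of the B lineage and a floxed Ppp2r1a gene on both alleles, which gave 3 libraries; the others were wild type (3 libraries). The labels place both groups on the C57BL/6 background at 8 weeks of age and name the spleen as tissue, while their protocols describe a peritoneal wash. Which of these is right was not settled. Ppp2r1a encodes the scaffold subunit of the phosphatase PP2A. The driver limits recombination to B lineage cells, and the labels do not say whether the wild-type mice carried Cre or floxed alleles. They do not tie each library to its own mouse either, so a p-value below reflects how much these 6 libraries scatter, and part of that scatter may be technical. Values cover the RNA of a whole sample, in which fewer cells of a kind and less RNA per cell cannot be told apart.

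As background, the 4 proteins have unrelated tasks. Sh3bgrl3 is a small cytosolic protein with a thioredoxin-like fold, related to glutaredoxins. Extl1 belongs to the exostosin family of glycosyltransferases, which build heparan sulfate chains on proteoglycans such as syndecans. Alpl is tissue-nonspecific alkaline phosphatase, an enzyme anchored on the outer cell surface that removes phosphate from pyrophosphate, pyridoxal phosphate and nucleotides; it is best known from bone, and activated mouse B cells also carry alkaline phosphatase activity. Akr7a5 is an aldo-keto reductase that turns reactive aldehydes, among them succinic semialdehyde, into alcohols.

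Steps in the low FPKM values put their depth at about 2010000 to 2440000 fragments in PP2Aa-deficient and 2060000 to 3610000 in WT libraries, and 9229 to 9332 genes reached 1 FPKM in each. The summed level of 8 B cell markers was 3237 to 3663 FPKM in PP2Aa-deficient and 3373 to 3494 FPKM in WT libraries, with all 8 tested. Ppp2r1a, the targeted gene, held 31.3, 56.2 and 28.2 FPKM in PP2Aa-deficient libraries, against 85.7, 85.4 and 83.7 FPKM in WT libraries. Each group held 1 library that expressed Xist, an RNA of the inactive X chromosome, which was replicate 1 in both. Replicate numbers here only follow the order of the samples and do not pair libraries between groups. PP2Aa-deficient replicate 3 stood apart in erythroid markers, whose 8 genes summed to 43.3 FPKM there, against 5.81 and 2.11 FPKM in the other PP2Aa-deficient libraries and 2.05 to 5.52 FPKM in WT libraries.

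Sh3bgrl3 was 1 of the most abundant transcripts of these cells, above 99.0% of tested genes in mean level. It was at 692, 693 and 569.6 FPKM in PP2Aa-deficient libraries, against 1278, 1110.4 and 1128 FPKM in WT libraries. Every PP2Aa-deficient library was below every WT library, with the nearest pair at 693 and 1110.4 FPKM. The means were 652 ± 70.9 FPKM in PP2Aa-deficient and 1172 ± 92.0 FPKM in WT B cells (SD, n = 3 each), which makes the first 55.6% of WT. The difference on the log2(FPKM + 1) scale was -0.85 (SE 0.12). Roughly 846 to 1062 fragments stood behind each PP2Aa-deficient value and 1655 to 2526 behind each WT value, so counting error was small for this gene.

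Extl1 was near the floor of the table, above only 0.658% of tested genes in mean level. It was listed at 0.186, 0.226 and 0 FPKM in PP2Aa-deficient libraries, against 1.43, 1.89 and 1.61 FPKM in WT libraries. The groups did not overlap, and the exact 0 may be a failed estimate, so no mean or fold is given. The fragments behind these values were few, about 1.9, 1.9 and 0 in PP2Aa-deficient libraries, against about 12.2, 28.1 and 16.8 in WT libraries. At this depth the residual level in PP2Aa-deficient cells was not measurable with any precision. On the log2(FPKM + 1) scale the difference was -1.22 (SE 0.24), a size that the pseudocount largely sets, and with a pseudocount of 0.1 it was -3.04.

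Alpl stood above WT. It was at 10.4, 9.95 and 9.46 FPKM in PP2Aa-deficient libraries, against 3.23, 3.57 and 2.32 FPKM in WT libraries. Every PP2Aa-deficient library was above every WT library, with the nearest pair at 9.46 and 3.57 FPKM. The means were 9.95 ± 0.492 FPKM in PP2Aa-deficient and 3.04 ± 0.645 FPKM in WT B cells (SD, n = 3 each), a ratio of 3.27 between PP2Aa-deficient and WT. The difference on the log2(FPKM + 1) scale was 1.45 (SE 0.18). About 64.2, 50.4 and 56.3 fragments lay behind the PP2Aa-deficient values, against 16.8, 32.5 and 14.8 behind the WT values.

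Akr7a5 was also above WT, at a higher level than Alpl. It was at 33.6, 35.2 and 26.0 FPKM in PP2Aa-deficient libraries, against 18.01, 18.1 and 16.6 FPKM in WT libraries. The WT libraries lay close together, and the lowest PP2Aa-deficient library, replicate 3, was still above the highest of them, at 26.0 against 18.1 FPKM. The means were 31.6 ± 4.89 FPKM in PP2Aa-deficient and 17.6 ± 0.881 FPKM in WT B cells (SD, n = 3 each), a ratio of 1.80 between PP2Aa-deficient and WT. The difference on the log2(FPKM + 1) scale was 0.80 (SE 0.15). About 105, 91.0 and 79.0 fragments lay behind the PP2Aa-deficient values, against 47.7, 84.4 and 53.9 behind the WT values.

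**Figure D1:**
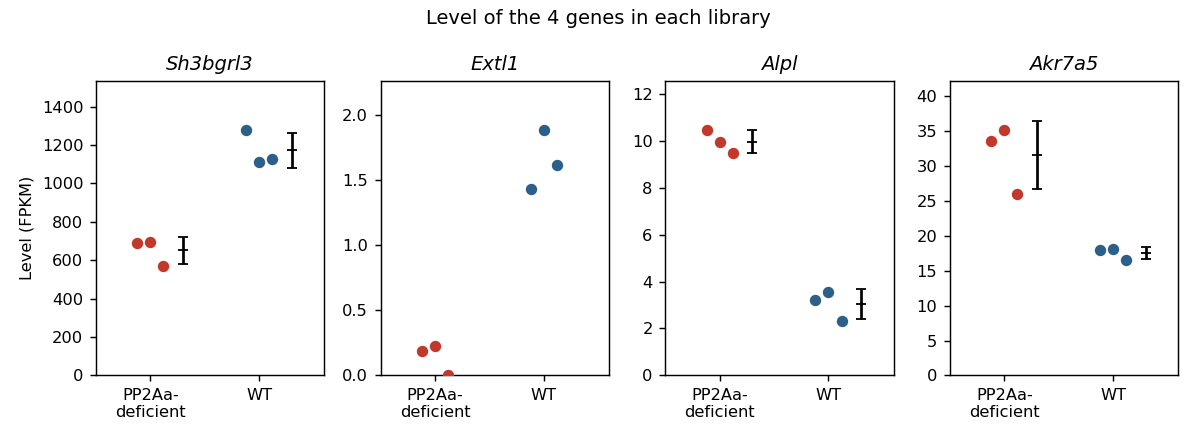
Level of each gene (FPKM, linear axes from 0) in the 3 PP2Aa-deficient and 3 WT libraries, replicates 1 to 3 from left to right in each group; black marks give the mean and SD, left out for Extl1, which is listed at 0 in 1 library. Sh3bgrl3 and Extl1 lie below WT and Alpl and Akr7a5 above it, with no overlap between the groups in any panel.

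The groups did not overlap in any of the 4 genes, a pattern that 15.1% of all tested genes showed, 7.7% with PP2Aa-deficient libraries higher and 7.4% with them lower. Nothing is read from that count, since the genes were picked on this contrast. Ranked by the size of the difference on the log2(FPKM + 1) scale among the 9425 tested genes, Alpl was at place 52, Extl1 at 83, Sh3bgrl3 at 236 and Akr7a5 at 272. The place of Extl1 depends on the pseudocount. With 0.1 its difference was -3.04, larger in size than the 1.70 of Alpl. The limma test across all genes, with Benjamini-Hochberg adjustment at 0.05, called 3 genes lower in PP2Aa-deficient cells (0.0318% of genes tested) and 0 higher (0.0%), and 893 genes had an unadjusted limma p under 0.05, 477 of them higher and 416 lower. None of the 4 genes was among the 3.

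Among the PP2Aa-deficient libraries, replicate 3 had the lowest level of all 4 genes, those above WT and those below it alike. For Extl1, 0 against about 1.9 fragments does not set it apart. Nor does Alpl, at 9.46 FPKM on about 56.3 fragments in replicate 3 and 9.95 FPKM on about 50.4 in replicate 2. Replicate 3 was also the library with the erythroid transcripts, whose part in these values was not tested. Without it the log2 differences were -0.76 for Sh3bgrl3, -1.13 for Extl1, 1.48 for Alpl and 0.93 for Akr7a5. Replicate 2 kept the most Ppp2r1a, 56.2 FPKM against 31.3 and 28.2 FPKM in the other PP2Aa-deficient libraries. Its Sh3bgrl3, 693 FPKM, was level with the 692 FPKM of replicate 1. Its Extl1, 0.226 FPKM, rested on about 1.9 fragments, as did the 0.186 FPKM of replicate 1. Neither gene tells replicates 1 and 2 apart. Akr7a5 was at its highest in replicate 2, 35.2 FPKM against 33.6 FPKM in replicate 1. These values rested on about 91.0 and 105 fragments, too few to tell such a gap from counting error. Alpl, at 9.95 FPKM in replicate 2, lay between the other PP2Aa-deficient libraries, an order that its fragments do not settle.

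The differences had a similar size in libraries with and without Xist. Their direction could not differ there, or with a library left out, since the groups of each gene did not overlap. Between the Xist-expressing libraries, 1 in each group, the log2 difference was -0.88 for Sh3bgrl3, -1.04 for Extl1, 1.44 for Alpl and 0.86 for Akr7a5. Between the libraries without Xist, 2 in each group, it was -0.83 for Sh3bgrl3, -1.31 for Extl1, 1.46 for Alpl and 0.77 for Akr7a5. Leaving out each of the 6 libraries in turn gave -0.90 to -0.76 for Sh3bgrl3, -1.28 to -1.13 for Extl1, 1.32 to 1.55 for Alpl and 0.72 to 0.93 for Akr7a5.

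**Figure D2:**
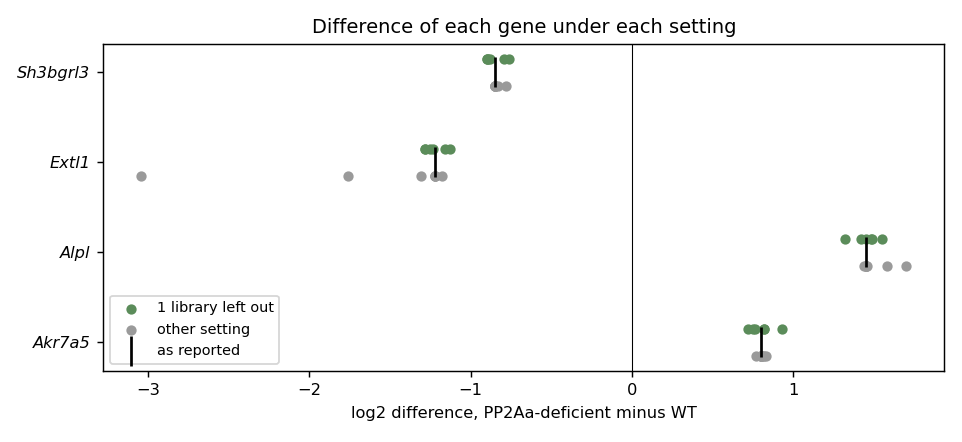
The log2 difference of each gene (PP2Aa-deficient minus WT, horizontal axis) as reported (bar), with 1 library left out (green points) and under the other settings (grey points). With a pseudocount of 0.1 the point of Extl1 is at -3.04, against -1.22 as reported. That of Alpl is then at 1.70, against 1.45 as reported. No point crosses 0, and with 1 library left out none could, since the groups do not overlap.

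The stretches before the transcription starts of the 4 genes are shown to let the starts of these neighbouring genes be compared. Each is the 250 bases before a start as listed by RefSeq on GRCm38.p6, which may not be the build of the expression table, read 5′ to 3′ on the strand of the gene. Alpl has 2 listed starts, and the table does not say which was used. Capitals mark exact matches on either strand to the GC box (GGGCGG), the CCAAT box (CCAAT), the TATA box (TATAAA) and the ETS core (CCGGAA).
Sh3bgrl3, chr4:134128734-134128983, minus strand: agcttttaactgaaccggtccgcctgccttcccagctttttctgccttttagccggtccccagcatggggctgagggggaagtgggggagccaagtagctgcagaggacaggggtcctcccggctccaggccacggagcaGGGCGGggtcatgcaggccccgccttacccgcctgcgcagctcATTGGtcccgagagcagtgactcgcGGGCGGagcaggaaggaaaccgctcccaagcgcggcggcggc
Extl1, chr4:134372548-134372797, minus strand: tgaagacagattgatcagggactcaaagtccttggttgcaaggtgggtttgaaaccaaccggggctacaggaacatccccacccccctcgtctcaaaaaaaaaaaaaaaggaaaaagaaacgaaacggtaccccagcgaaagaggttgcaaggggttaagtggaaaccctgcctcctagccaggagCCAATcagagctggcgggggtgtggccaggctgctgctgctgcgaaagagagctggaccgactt
Alpl outer start, chr4:137796385-137796634, minus strand: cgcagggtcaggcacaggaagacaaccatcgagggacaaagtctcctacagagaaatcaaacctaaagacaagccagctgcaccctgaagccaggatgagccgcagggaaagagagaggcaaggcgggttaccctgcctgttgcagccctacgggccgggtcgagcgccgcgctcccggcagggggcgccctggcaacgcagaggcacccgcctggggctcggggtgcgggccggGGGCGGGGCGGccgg
Alpl inner start, chr4:137766476-137766725, minus strand: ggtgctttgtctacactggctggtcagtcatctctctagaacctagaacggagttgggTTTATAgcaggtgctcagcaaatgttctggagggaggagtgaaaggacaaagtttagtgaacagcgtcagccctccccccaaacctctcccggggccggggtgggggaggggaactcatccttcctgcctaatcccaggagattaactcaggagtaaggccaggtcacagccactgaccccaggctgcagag
Akr7a5, chr4:139310494-139310743, plus strand: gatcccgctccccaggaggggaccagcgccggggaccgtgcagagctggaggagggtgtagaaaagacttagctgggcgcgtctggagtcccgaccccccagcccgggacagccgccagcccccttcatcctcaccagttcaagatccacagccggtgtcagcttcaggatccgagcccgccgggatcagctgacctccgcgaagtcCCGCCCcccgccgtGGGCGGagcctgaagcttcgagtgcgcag

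Sh3bgrl3, the outer start of Alpl and Akr7a5 each had 2 GC boxes, which 32.7% of the 32851 RefSeq promoter windows held at least once. At the outer Alpl start these shared 1 base and began 15 and 10 bases before the start. Extl1 and the inner start of Alpl had 0. Sh3bgrl3 and Extl1, the pair below WT, each had 1 CCAAT box, in opposite orientations and beginning 67 and 64 bases before the start, and Alpl and Akr7a5 had 0; 33.8% of all windows held this motif. The TATA box appeared only at the inner start of Alpl (12.4% of windows) and the ETS core in none of the 5 (12% of windows), and no motif overlapped one of another kind. The windows of Sh3bgrl3, Akr7a5 and the outer Alpl start held 18, 21 and 20 CpG pairs, against 8 in Extl1, 4 at the inner Alpl start and a median of 6 over all windows. A match describes the letters only.

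Around the 4 genes, a larger share of tested genes was past an unadjusted limma p of 0.05 than among all tested genes, and this excess was not tested. In the gene order of RefSeq, 3 tested genes lay between Sh3bgrl3 and Extl1, 32 between Extl1 and Alpl and 10 between Alpl and Akr7a5. With 10 more on either side this made 65 neighbours, leaving out the 4 genes. Of these, 14 (21.5%) had an unadjusted limma p under 0.05, against 9.47% of all tested genes, with 8 above WT (5.06% of all genes) and 6 below it (4.41%). Of the 65, Sfn alone passed with adjustment over all genes. Without it the count was 13 of 64 (20.3%). The 14 include Pqlc2, which overlaps Akr7a5, and fragments from their overlapping ends cannot be told apart. The median log2 difference of the 65 was -0.039, against -0.007 for all tested genes, and 28 lay above WT and 37 below it. The count was 8 of 65 (12.3%, against 9.09% of all genes) without PP2Aa-deficient replicate 2, and 9 of 65 (13.8%) without WT replicate 2 or WT replicate 3, against 7.02% and 8.69% of all genes.

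Sfn, which encodes the 14-3-3 sigma adaptor, lay 8 tested genes before Sh3bgrl3 and differed most in the stretch. It was at 2.76, 3.68 and 2.27 FPKM in PP2Aa-deficient libraries, against 35.4, 45.8 and 34.5 FPKM in WT libraries (limma adjusted p = 0.000432). In the same 10 genes before Sh3bgrl3, the palmitoyltransferase gene Zdhhc18 was at 17.9, 18.7 and 19.1 FPKM in PP2Aa-deficient libraries and 10.8, 15.1 and 13.6 FPKM in WT libraries (limma adjusted p = 0.397). Gpn2, a GTPase gene, was the third of these 10 past the unadjusted threshold, with a log2 difference of 0.41 (SE 0.17). Of all tested genes, 9.47% were past it.

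The nearest tested genes of Sh3bgrl3 and Extl1 missed the unadjusted threshold. Ubxn11 and Cep85, on either side of Sh3bgrl3, had log2 differences of -0.04 (SE 0.24) and -0.57 (SE 0.26). Cep85, which encodes a centrosomal protein, was at 1.39, 0.725 and 0.721 FPKM in PP2Aa-deficient and 1.18, 2.35 and 2.21 FPKM in WT libraries, and its groups overlapped. E130218I03Rik and the microtubule regulator gene Stmn1, on either side of Extl1, had log2 differences of 0.74 (SE 0.39) and -0.49 (SE 0.31). Slc30a2 and Pafah2, which RefSeq lists closer to Extl1, were too low to be tested, and Slc30a2 was listed at 0 in all 6 libraries. Of the 3 genes between Sh3bgrl3 and Extl1, 0 had an unadjusted limma p under 0.05, against 9.47% of all tested genes.

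Between Extl1 and Alpl, 5 of 32 neighbours (15.6%) had an unadjusted limma p under 0.05, against 9.47% of all tested genes. Those below WT included Clic4, a chloride intracellular channel gene (log2 -0.59, SE 0.20), and the splicing factor gene Syf2 (log2 -0.32, SE 0.12). Above it were Tceb3, which encodes elongin A (log2 0.47, SE 0.14), and Cnr2, the cannabinoid receptor of immune cells. Cnr2 was at 29.9, 34.0 and 31.97 FPKM in PP2Aa-deficient libraries, against 20.5, 25.2 and 25.2 FPKM in WT libraries (limma adjusted p = 0.397). The nearest tested genes of Alpl were close to WT: the deubiquitinase gene Usp48 had a log2 difference of 0.07 (SE 0.16) and Ece1, which encodes the endothelin-converting enzyme, 0.02 (SE 0.21).

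Between Alpl and Akr7a5, 3 of 10 neighbours had an unadjusted limma p under 0.05, against 9.47% of all tested genes. Pink1, which encodes a kinase that marks damaged mitochondria, was at 1.21, 2.52 and 1.79 FPKM in PP2Aa-deficient libraries, against 4.10, 3.73 and 3.84 FPKM in WT libraries (limma adjusted p = 0.296). Capzb, which encodes an actin-capping subunit, had a log2 difference of -0.28 (SE 0.11). The third was Pqlc2, listed by RefSeq as Slc66a1, a lysosomal amino acid transporter gene whose start overlaps that of Akr7a5. Pqlc2 was at 5.55, 8.73 and 7.86 FPKM in PP2Aa-deficient libraries, against 5.83, 4.14 and 3.77 FPKM in WT libraries, with a log2 difference of 0.59 (SE 0.22, limma adjusted p = 0.453). Its groups overlapped, since PP2Aa-deficient replicate 1 lay below WT replicate 1. The sources do not say if counting took strand into account, and fragments from the overlapping ends of Akr7a5 and Pqlc2 cannot be told apart. Mrto4, the ribosome assembly gene on the other side of Akr7a5, had a log2 difference of 0.37 (SE 0.19). Among the 10 genes after Akr7a5, Ubr4, Sdhb and Atp13a2 had log2 differences of 0.34 (SE 0.14), 0.35 (SE 0.15) and 0.53 (SE 0.18), and all 3 were past the unadjusted threshold.

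Of the 14 neighbours past the unadjusted threshold, Sfn, Zdhhc18, Clic4, Cnr2, Tceb3 and Pink1 were past it with any 1 library left out, and the other 8 were not. Zdhhc18 and Tceb3 missed it without the Xist-expressing libraries.

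**Figure D3:**
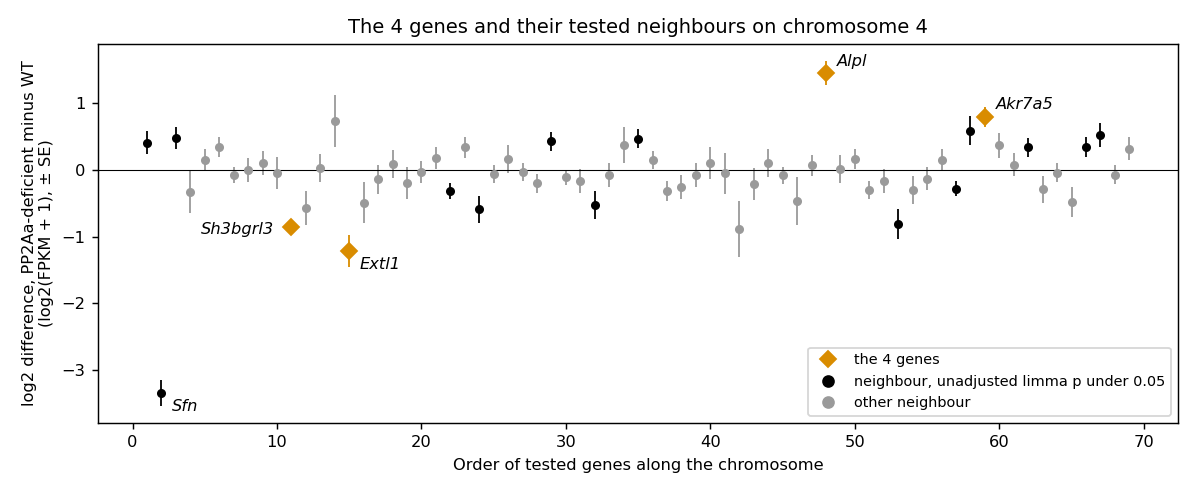
The log2 difference (PP2Aa-deficient minus WT, on the log2(FPKM + 1) scale, ± SE) of the 4 genes (diamonds) and their 65 tested neighbours, in gene order along chromosome 4; black points have an unadjusted limma p under 0.05. Black points lie on both sides of 0 along the stretch, and Sfn, at -3.34, is the lowest point.

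The share was also above that of all tested genes over the chromosome as a whole. Over chromosome 4 without the 4 genes, 86 of 576 tested genes (14.9%) had an unadjusted limma p under 0.05, 52 above WT and 34 below it. These include the neighbours counted above. On the rest of chromosome 4, without the 65 neighbours, it was 72 of 511 (14.1%), 44 above WT and 28 below it, against 21.5% of the neighbours. The shares of the other autosomes and of chromosome X ran from 5.88% on chromosome 19 to 13.3% on chromosome 17, which carries Ppp2r1a. In 10 blocks of 58 tested genes along chromosome 4, the share was 29.3% (17 genes, 10 above WT and 7 below) in the seventh block, which holds Sfn, and 16.7% (9 of 54, leaving out the 4 genes) in the eighth, which holds all 4 genes. The other blocks had between 6.9% and 20.7%. These blocks were drawn after the differences were known, and the shares are given as a description.

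**Figure D4:**
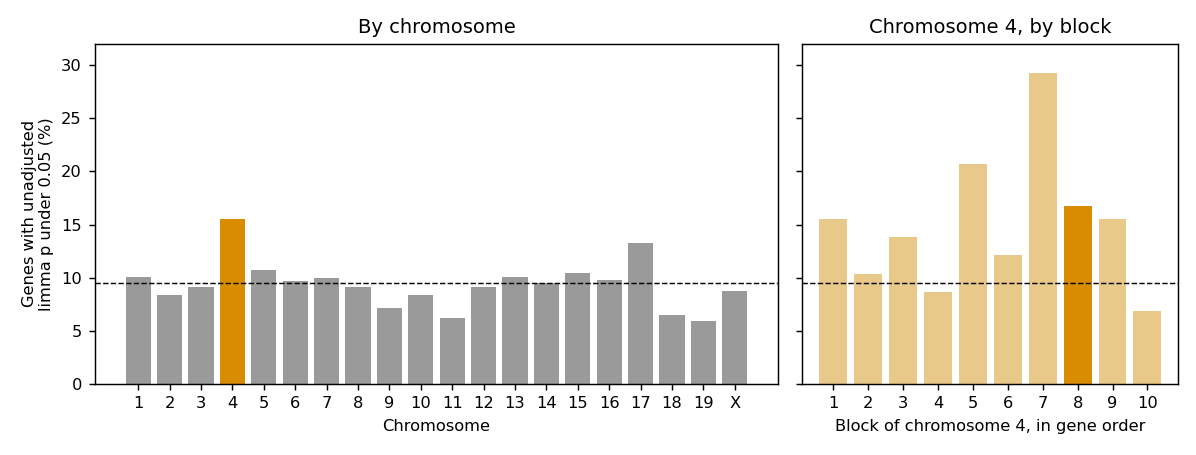
Share of tested genes with an unadjusted limma p under 0.05 on each chromosome (left, the 4 genes included) and in 10 blocks of 58 tested genes along chromosome 4 (right, the 4 genes left out); the dashed line is the share over all tested genes, 9.47%. Chromosome 4 has 15.5%, and its highest bar is the seventh block, at 29.3%, just before the eighth (dark), which holds the 4 genes.

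In the families and pathways of the 4 genes, 1 to 4 genes per list were past the unadjusted threshold, which 9.47% of all tested genes were past. Of 23 tested genes of the glutaredoxin and thioredoxin families, 1 had an unadjusted limma p under 0.05 above WT and 1 below, against 9.47% of all tested genes in either direction, and the median log2 difference was -0.035. The one above was Glrx5, a glutaredoxin of mitochondrial iron-sulfur assembly, at 7.11 ± 1.37 FPKM in PP2Aa-deficient and 4.26 ± 1.22 FPKM in WT B cells (SD, n = 3 each; limma adjusted p = 0.429). The one below was the peroxidase gene Prdx6, at 49.7 ± 3.49 FPKM in PP2Aa-deficient and 65.1 ± 2.48 FPKM in WT B cells (limma adjusted p = 0.369). Sh3bgrl, the closest relative of Sh3bgrl3 among the tested genes, was at 23.6, 24.7 and 26.3 FPKM in PP2Aa-deficient and 22.5, 24.8 and 25.5 FPKM in WT libraries. The groups of Sh3bgrl overlapped almost fully (log2 0.04, SE 0.13).

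Of 17 tested genes of heparan sulfate synthesis and its core proteins, 1 was past the unadjusted threshold above WT and 3 below, against 5.06% of all tested genes above and 4.41% below, and the median log2 difference was 0.028. The 3 below were Sdc1, the syndecan carried by plasma cells, Hs3st1, a heparan sulfotransferase gene, and Papss1, which encodes the enzyme that makes the sulfate donor. Sdc1 was at 2.07, 3.45 and 0.802 FPKM in PP2Aa-deficient libraries, against 6.13, 6.45 and 4.11 FPKM in WT libraries (limma adjusted p = 0.331). Sdc1 is itself 1 of 7 plasma cell markers, which summed to 685 to 943 FPKM in PP2Aa-deficient and 1278 to 1959 FPKM in WT libraries. Igj, the gene of the antibody joining chain, made up most of that gap, at 199.5, 460.5 and 186 FPKM in PP2Aa-deficient and 1167, 816 and 792 FPKM in WT libraries. Xbp1 was also lower in every PP2Aa-deficient library, at 40.4, 37.65 and 32.9 FPKM, against 66.2, 53.4 and 52.4 FPKM in WT libraries. So was Prdm1, at 2.78, 2.75 and 2.42 FPKM in PP2Aa-deficient and 3.21, 2.92 and 3.24 FPKM in WT libraries. Mzb1, a chaperone gene of antibody-secreting cells, overlapped between the groups. It was at 326, 302 and 314 FPKM in PP2Aa-deficient and 574, 236 and 284 FPKM in WT libraries. Irf4 and Tnfrsf17 overlapped too. The part of plasma cell RNA in Sdc1 was not tested. Hs3st1 was at 62.7 ± 5.06 FPKM in PP2Aa-deficient and 79.6 ± 1.59 FPKM in WT B cells (SD, n = 3 each; limma adjusted p = 0.408), and Papss1 at 4.79 ± 0.95 FPKM in PP2Aa-deficient and 6.99 ± 0.587 FPKM in WT B cells (limma adjusted p = 0.468). Sdc3, another syndecan gene, was the one above (log2 0.67, SE 0.28). The chain-building relatives of Extl1 that were tested, Ext2 and Extl3, had log2 differences of 0.04 (SE 0.18) and -0.12 (SE 0.18).

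Of 16 tested genes of phosphate, pyrophosphate, vitamin B6 and extracellular nucleotide handling, 1 was past the unadjusted threshold above WT and 1 below (all tested genes, 9.47% in either direction), and the median log2 difference was -0.041. Enpp1, the ectoenzyme that makes the pyrophosphate which Alpl degrades, was at 4.50, 4.13 and 2.01 FPKM in PP2Aa-deficient libraries, against 7.36, 4.84 and 6.45 FPKM in WT libraries (limma adjusted p = 0.462). Its groups did not overlap, though the nearest values were 4.50 and 4.84 FPKM. Adora2a, an adenosine receptor gene, was at 3.11 ± 0.927 FPKM in PP2Aa-deficient and 1.75 ± 0.355 FPKM in WT B cells (SD, n = 3 each; limma adjusted p = 0.51). Of 18 tested aldo-keto reductases and enzymes of aldehyde clearance, 1 was past the threshold above WT and 0 below (all tested genes, 9.47% in either direction), and the median log2 difference was -0.142. This was the carbonyl reductase gene Cbr4 (log2 0.67, SE 0.25, limma adjusted p = 0.447). Akr1a1, the most abundant of the aldo-keto reductases tested, was at 139, 128 and 136 FPKM in PP2Aa-deficient and 154, 130.2 and 132 FPKM in WT libraries, and its groups overlapped. In each of the 4 lists, 0 genes passed limma with adjustment over all genes.

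**Figure D5:**
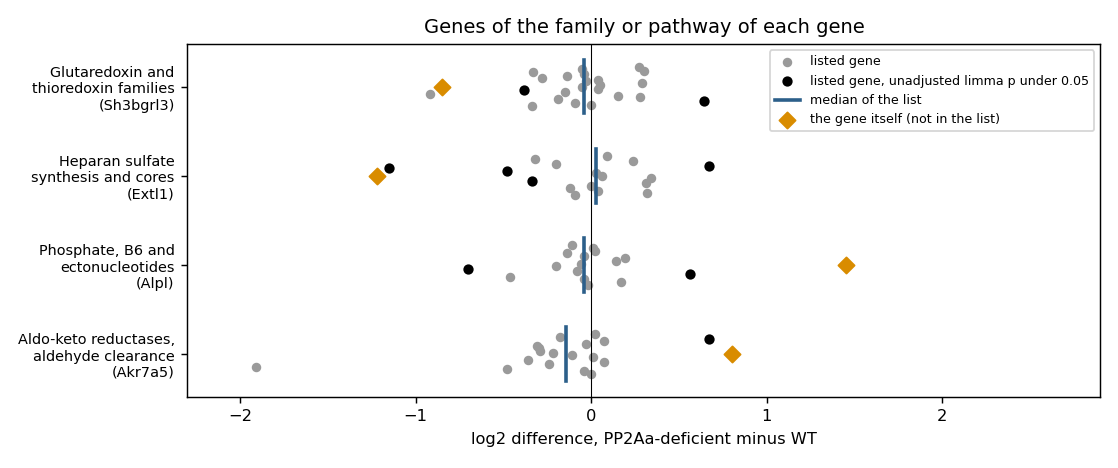
The log2 differences (PP2Aa-deficient minus WT) of the tested genes in the list of each of the 4 genes (points), their median (bar) and the gene itself (diamond); black points have an unadjusted limma p under 0.05. The 4 medians lie between -0.142 and 0.028, and Sh3bgrl3 is at -0.85, Extl1 at -1.22, Alpl at 1.45 and Akr7a5 at 0.80. Listed genes run from -0.92 to 0.64 for Sh3bgrl3 and from -1.15 to 0.67 for Extl1. They run from -0.70 to 0.56 for Alpl and from -1.91 to 0.67 for Akr7a5. The 4 genes were picked for their difference, so nothing is read from their distance to the medians.

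Alpl is also a gene of bone-forming and stromal cells, so their markers are given beside it. Of 12 such markers, 11 stayed under 1 FPKM in every library, and the collagen genes Col1a1 and Col3a1 and the bone genes Bglap and Sp7 were listed at 0 in all 6. The exception was Spp1, at 4.88, 2.37 and 1.34 FPKM in PP2Aa-deficient libraries and 0.762, 1.59 and 6.01 FPKM in WT libraries. The sum over the 12 was 1.48 to 5.11 FPKM in PP2Aa-deficient and 1.15 to 6.88 FPKM in WT libraries. The 7 neutrophil markers in the table summed to 1.31 to 6.62 FPKM in PP2Aa-deficient and 2.12 to 6.57 FPKM in WT libraries, with Elane and Retnlg at 0 in all 6. The endothelial genes Cdh5, Kdr, Tek and Vwf stayed under 1 FPKM in every library, and the fifth on that list, Pecam1, was at 30.5 to 36.2 FPKM in PP2Aa-deficient and 31.4 to 40.7 FPKM in WT libraries. Of the other marker sums, that of T cells was 131 to 167 FPKM in PP2Aa-deficient and 175 to 210 FPKM in WT libraries, of which Cd2 alone gave 109 to 139 FPKM in PP2Aa-deficient and 138 to 189 FPKM in WT libraries. Among the other T cell markers, Cd3e and Cd4 stayed under 1 FPKM in every library, and Zap70 was above WT, at 3.42, 2.12 and 3.61 FPKM in PP2Aa-deficient and 1.201, 1.86 and 0.709 FPKM in WT libraries. Lck was at 10.8, 20.6 and 13.3 FPKM in PP2Aa-deficient and 28.95, 16.2 and 13.7 FPKM in WT libraries. Its groups overlapped, as did those of Cd3d, Cd3g and Cd8a. The sum of macrophage and monocyte markers was 23.7 to 29.0 FPKM in PP2Aa-deficient and 26.0 to 32.8 FPKM in WT libraries, mostly from Lyz2 and Cd68. Emr1 on that list did not overlap, at 0.242, 1.91 and 0.25 FPKM in PP2Aa-deficient and 8.59, 2.94 and 3.84 FPKM in WT libraries. The other markers of the list overlapped between the groups. The part of other cell types in the levels of the 4 genes was not tested.

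The genes most like each of the 4 across the 6 libraries were found by the mean absolute difference between profiles centred on their own mean. Nearest to Sh3bgrl3 were Tnfrsf1a, a TNF receptor gene (0.083 log2 units), and Slc8b1, a mitochondrial ion exchanger gene (0.085). Nearest to Extl1 were Ifitm7 (0.121) and again Tnfrsf1a (0.139), and nearest to Alpl were Bloc1s3 (0.137) and Setd6, a methyltransferase gene (0.155). Nearest to Akr7a5 were Rfx5, a transcription factor gene of MHC class II (0.071), and Trim14 (0.073). Of these 7 genes only Trim14 lies on chromosome 4, at 6.37, 6.69 and 4.82 FPKM in PP2Aa-deficient libraries, against 2.91, 2.65 and 3.31 FPKM in WT libraries. Extl1 was 0.205 log2 units from both Sh3bgrl3 and Ppp2r1a, and Alpl was 0.324 from Akr7a5. Tnfrsf1a was near the floor, at 0.194, 0.235 and 0 FPKM in PP2Aa-deficient and 1.14, 1.30 and 1.12 FPKM in WT libraries. Ifitm7 was too, at 0 in every PP2Aa-deficient library and 1.55, 1.75 and 1.29 FPKM in WT libraries. For such genes the pseudocount largely sets the size, so Tnfrsf1a and the abundant Sh3bgrl3 do not share a fold change. The measure follows the size of the group difference, so nearness says only that profiles match on the log2(FPKM + 1) scale over these 6 libraries.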

How the data were processed

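RNA from B cells was measured in 6 Smart-seq2 low-input libraries, per the labels' protocols, and the authors deposited 1 table of FPKM values with 1 column per library. Per the submitters' processing notes, BWA, TopHat2 2.0.10, Cufflinks 2.2.1 and Cuffnorm were used; their roles are not stated. Strand use, scaling by Cuffnorm, annotation and genome build were not given in the sources used here. Of 22815 rows, 27 carried dates in place of symbols and were left out. Groups follow each sample's own label, and columns were matched to samples through the table's header. A deposited plate sheet calls the wells of the PP2Aa-deficient libraries miRNA target and those of the WT libraries miRNA CTRL; this is not settled.

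Values were tested as log2(FPKM + 1), with fold changes on that scale understating the change of low genes, in R 4.3.3 by the two-sided moderated test of limma 3.58.1 with a trend and no covariate, adjusted over 9425 genes with at least 1 FPKM in at least 3 libraries. The limma step was tested on simulated data. Relative depth came from the most common ratio of low values between libraries, and fragments from GENCODE M21 transcript lengths, so both are approximate, and they limit counting error only. Gene order came from RefSeq genes of GRCm38.p6, where 9384 tested genes matched by symbol or synonym, and promoter windows from the same release. Summaries used Python 3.11.15, pandas 2.3.3, numpy 2.4.6 and matplotlib 3.10.9. The 4 genes and the lists were chosen with earlier results of these data known. Named genes are the 4, Ppp2r1a, Sfn, the nearest tested genes, neighbours with an unadjusted p under 0.05, the 2 profiles most like each gene, up to 4 genes per pathway list and markers; some genes that this rule names are not reported here, and Sh3bgrl, Ext2, Extl3 and Akr1a1 were added after their values were seen. The 15 alternatives were median-ratio scaling, quantile normalization, no trend, pseudocounts of 0.1 and 0.5, a filter at 5 FPKM or none, a term for Xist, no Xist-expressing libraries and each library left out.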

Additional observations from a re-analysis of the deposited data

How the results depend on the processing

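The log2 differences of the 4 genes kept their direction in all 15 alternatives, except that Extl1 was not tested with the filter at 5 FPKM. Where a library was left out or the pseudocount changed, that direction was fixed, since the groups did not overlap. The differences of Sh3bgrl3 and Akr7a5 moved by less than the spread between libraries. With a pseudocount of 0.1, Extl1 was at -3.04 and Alpl at 1.70, and with 0.5 Extl1 was at -1.76, since a smaller pseudocount shrinks low values less. Genes called higher numbered 7 after quantile normalization, 3 with the filter at 5 FPKM, 1 unfiltered, 4 without the trend and 5 without the Xist-expressing libraries, and genes called lower 5 without the trend. With 1 library left out they ran from 0 to 4 higher and from 2 to 12 lower, the 12 without PP2Aa-deficient replicate 2. Neighbours past the unadjusted threshold ran from 8 to 16 with 1 library left out and from 11 to 16 otherwise. In the Akr7a5 list, genes past that threshold numbered 0 with the filter at 5 FPKM (median -0.044), 3 without the Xist-expressing libraries, and 1 to 2 with 1 library left out (median -0.160 to -0.078). In the Extl1 list they numbered 2 with the filter at 5 FPKM (median -0.202), 1 without the Xist-expressing libraries (median -0.096), and 1 to 4 with 1 library left out (median -0.083 to 0.049). In the Sh3bgrl3 list they numbered 4 with a term for Xist and 1 to 4 with 1 library left out (median -0.164 to 0.017). In the Alpl list they numbered 0 with the filter at 5 FPKM, 1 unfiltered, 1 without the Xist-expressing libraries, and 0 to 3 with 1 library left out. The filters change which genes are tested; the cause of the other changes was not tested. No paired analysis was possible because the labels carry no replicate numbers, and those used here only follow the order of the samples. Values of a few FPKM rest on few fragments, which limits Extl1 most.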
